A study of Mus musculus with 47 samples.

Results

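NRF2, encoded by Nfe2l2, is the transcription factor that switches on the lung's defence against oxidants and electrophiles. In unstressed cells KEAP1 holds it for destruction by the proteasome. When KEAP1 is modified by an oxidant, or bound by SQSTM1, NRF2 enters the nucleus, pairs with a small MAF protein and binds antioxidant response elements beside genes of glutathione synthesis, thioredoxin recycling, haem breakdown and quinone detoxification.

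The 10 genes described here are such targets: Slc7a11, Gclc, Gclm, Txnrd1, Srxn1, Prdx1, Hmox1, Blvrb, Nqo1 and Sqstm1. Their members on the arrays were all probe sets annotated to any of the 10 genes in any of the 6 array tables, which gave 25 of 49372 probe set IDs. The genes were chosen by their array intensities in earlier results of these data, which had PBS 24 h lungs standing apart from the other 3 groups. Every contrast with PBS 24 h is therefore a description here, with no test, and the tests compare only the other groups.

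The series measured total RNA of mouse lung on Affymetrix murine U74 arrays of 3 kinds, called A, B and C, each made in a first version and a version 2. Mice were sensitized on days 0 and 3 and given intratracheal challenges on days 10 and 17, and the lungs were collected 24 h or 72 h later. The groups were ragweed 72 h (ragweed at sensitization and challenge), PBS 72 h (PBS at both), ragweed 24 h and PBS 24 h, with 2 samples each, coded 1a and 1b. The labels name alum, an adjuvant, for the ragweed groups alone, and give no strain or age. Whether 1a and 1b are separate animals is not stated, so p-values reflect only how far these samples spread, and that spread may be technical.

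All values are intensities, with a precision limited by the number of arrays. The main tables are first-version A, which has all 4 groups, and version 2 B and C. Version 2 A has no ragweed 24 h array among those analysed here and served as a second measurement of the other groups. In these tables a floor, the 40th percentile of the table, was set at 291.6 on A, 356.4 on B and 244.7 on C, and a probe set was tested when at least 2 arrays lay above it. Of the 25 IDs, 18 were in the main tables and 14 were tested, 9 of them above the floor on all 8 arrays. They cover 7 genes on probe sets of their own. The 3 Prdx1 probe sets are also annotated to Gm21399, a Prdx1 pseudogene, so their signal may hold both. Nqo1 and Hmox1 had no tested probe set in the main tables.

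PBS 24 h lungs had the highest levels of Slc7a11, Srxn1, Sqstm1 and Txnrd1, and of 1 probe set each of Gclm, Blvrb and Prdx1. All 6 other samples lay below both PBS 24 h samples for these 7 of 14 tested probe sets, where 5.13% of all 25250 tested probe sets did so. One of the 7, Srxn1, was tested only through its PBS 24 h arrays. With a filter on the other groups' arrays alone, chosen after seeing the data, the count was 6 of 12, where 4.77% of 24120 probe sets did so. None of the 14 had all 6 other samples above both PBS 24 h samples, where 3.23% of all did. Ragweed 24 h lungs lay above both 72 h groups and below PBS 24 h for Slc7a11, Sqstm1 and the same Blvrb and Prdx1 probe sets, and overlapped PBS 24 h for Gclc. On version 2 A both 72 h groups lay below both PBS 24 h samples for 7 of 10 tested probe sets, where 13.9% of all 8044 did, and above them for 1, of Hmox1, where 13.8% of all did. The 7 include Nqo1 94351_r_at, which was above the floor only on the PBS 24 h arrays, and with the filter on the 72 h arrays alone the count was 6 of 9, where 13.8% of 7814 did. In bulk lung, more cells of a type and more RNA per cell cannot be told apart.

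**Figure D1:**
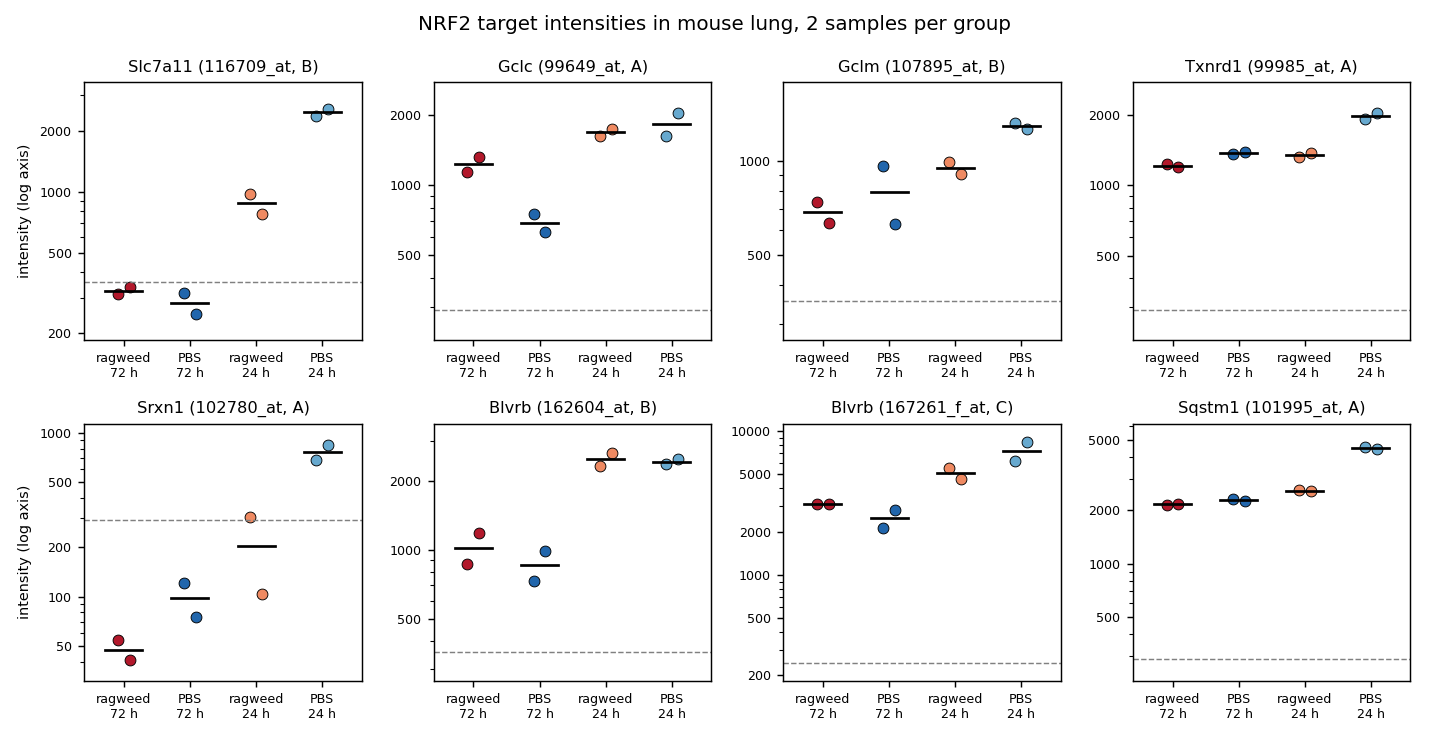
Intensity (log axis) of 8 probe sets of 7 NRF2 targets in each sample of the main tables, by group. Points are the 2 samples, bars their mean and the dashed line the floor of the table. The PBS 24 h points stand highest for Slc7a11, Srxn1, Sqstm1, Gclm, Txnrd1 and Blvrb 167261_f_at, and overlap ragweed 24 h for Blvrb 162604_at and Gclc.

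Promoter sequence is shown for the members whose windows matched a searched response element, with the matching letters in capitals. RefSeq promoter windows (GRCm38.p6, 250 bases before to 50 after a start site) were found for 8 of the 10 genes. They hold 11 windows, since Txnrd1 has 3 and Blvrb 2. Hmox1 and Gclc had no entry. The antioxidant response element was searched as TGACNNNGC on both strands. It matched in 1 window each of Srxn1, Gclm, Prdx1 and Txnrd1, and 12.4% of all 32851 windows hold a match. The stricter form TGACTCAGC, which is contained in the first, matched Prdx1, and 0.454% of all windows hold it. All 4 matches lie on the strand opposite to the gene, so the capitals below, written along the gene's strand, are the reverse complement of the element. They start 134 bases before the start site in Gclm, 133 before it in Prdx1, 92 before it in a second Txnrd1 window, and 29 bases into the transcript in Srxn1.
Prdx1 chr4:116685456-116685484 (+): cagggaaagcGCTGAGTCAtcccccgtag
Txnrd1 chr10:82859104-82859132 (+): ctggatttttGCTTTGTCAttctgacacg
Srxn1 chr2:152105542-152105570 (+): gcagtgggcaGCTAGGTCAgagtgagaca
Gclm, 250 bases upstream, chr3:122245307-122245556 (+): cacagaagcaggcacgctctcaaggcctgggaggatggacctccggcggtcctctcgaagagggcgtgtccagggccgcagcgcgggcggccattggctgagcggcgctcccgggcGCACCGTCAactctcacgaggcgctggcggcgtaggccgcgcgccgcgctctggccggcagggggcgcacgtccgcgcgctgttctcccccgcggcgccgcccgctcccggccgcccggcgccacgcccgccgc

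Slc7a11 had no TGACNNNGC in its window. It is also a target of ATF4, the factor of the amino acid response, whose element was searched as TGATGNAA on both strands, a motif added after the sequences had been seen. The Slc7a11 window held 2 matches, facing each other 66 and 47 bases before the start site, and no other member's window held one. Of all windows, 3.97% hold a match. A match is a description of letters, not of binding, and a window without one says nothing about the factor.
Slc7a11, 250 bases upstream, chr3:50443614-50443863 (-): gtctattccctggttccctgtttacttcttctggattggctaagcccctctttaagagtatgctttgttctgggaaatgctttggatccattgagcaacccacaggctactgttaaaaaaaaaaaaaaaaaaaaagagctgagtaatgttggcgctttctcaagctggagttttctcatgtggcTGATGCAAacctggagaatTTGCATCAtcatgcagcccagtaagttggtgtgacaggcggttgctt

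Slc7a11 encodes the cystine importer xCT, which supplies the cysteine for glutathione. Its probe set 116709_at read 312 and 337 in ragweed 72 h lungs, 316 and 248 in PBS 72 h lungs, 972 and 781 in ragweed 24 h lungs, and 2367 and 2579 in PBS 24 h lungs. The 72 h samples all lay below the floor, ragweed 24 h above it, and PBS 24 h above every other sample. The mean of the other 3 groups was below PBS 24 h by a fitted log2 difference of -2.36 ± 0.32 (SE, n = 2 per group), fitted with the 72 h samples raised to the floor. Ragweed 72 h minus ragweed 24 h was -1.29 ± 0.39 on the log2 scale, likewise with ragweed 72 h at the floor (limma, p = 0.00648, adjusted p = 0.246), which did not pass the threshold. The first-version B array also had PBS 24 h highest and ragweed 24 h next, with 200.4 and 80.2 in ragweed 72 h lungs, 445 and 265 in PBS 72 h lungs, 655 and 1001 in ragweed 24 h lungs, and 1930.5 and 1353 in PBS 24 h lungs. Its PBS arrays had been deposited unscaled, and all its arrays were rescaled and quantile normalized here. The other Slc7a11 probe set, 101713_at, was never above the floor, on either version of A.

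Gclc and Gclm encode the catalytic and the modifier subunit of glutamate-cysteine ligase, the rate-limiting enzyme of glutathione synthesis. Gclc 99649_at read 1138 and 1314 in ragweed 72 h lungs, 748 and 627 in PBS 72 h lungs, 1617 and 1735 in ragweed 24 h lungs, and 1615 and 2033 in PBS 24 h lungs. Ragweed 24 h and PBS 24 h overlapped, ragweed 72 h lay below both, and PBS 72 h was lowest. The ragweed 72 h samples were both above the PBS 72 h samples, with a log2 difference of 0.84 ± 0.19 (limma, unadjusted p = 0.00209, adjusted p = 0.155), which missed the threshold. Version 2 A gave 1555 and 1538 in ragweed 72 h lungs, 1078 and 852 in PBS 72 h lungs, and 3270.3 and 2901 in PBS 24 h lungs. There the difference between ragweed 72 h and PBS 72 h was 0.69 ± 0.16 on the log2 scale (limma, adjusted p = 0.164), and the 3 groups did not overlap. The log2 difference between ragweed 72 h and ragweed 24 h on first-version A was -0.45 ± 0.19 (limma, adjusted p = 0.447).

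A dimmer Gclc probe set, 111650_at on B, read 455 and 435 in ragweed 72 h lungs, 51 and 352 in PBS 72 h lungs, 979 and 329 in ragweed 24 h lungs, and 979 and 935 in PBS 24 h lungs. Its PBS 72 h and ragweed 24 h pairs were each split widely, and ragweed 24 h overlapped PBS 24 h. On first-version B this set had 404 and 760 in ragweed 72 h lungs and 107 and 117 in PBS 72 h lungs. Ragweed 24 h lungs had 683 and 695 and PBS 24 h lungs 867 and 466, with both ragweed groups overlapping PBS 24 h. The log2 difference of the other 3 groups to PBS 24 h was -1.07 ± 0.38 on version 2 B and -0.24 ± 0.33 on first-version B. Gclm 107895_at read 736 and 634 in ragweed 72 h lungs, 967 and 626 in PBS 72 h lungs, 991 and 908 in ragweed 24 h lungs, and 1326 and 1266 in PBS 24 h lungs. PBS 24 h was above all other samples, and PBS 72 h overlapped both ragweed groups. The log2 difference of the other 3 groups to PBS 24 h was -0.70 ± 0.29. Another Gclm probe set, 160335_at on version 2 A, read 611 and 639.6 in ragweed 72 h lungs, 892 and 601 in PBS 72 h lungs, and 2562 and 2697 in PBS 24 h lungs. The 72 h groups overlapped each other far below PBS 24 h, with a log2 difference of -1.96 ± 0.18. Its counterpart on first-version A, 95099_at, built on the same accession, was dim, with 55.9 and 349 in ragweed 72 h lungs, 82.1 and 224 in PBS 72 h lungs, 263 and 371 in ragweed 24 h lungs, and 483 and 449 in PBS 24 h lungs, and PBS 24 h was again highest. The set 95099_at is not on version 2 A and was left out of the fit. The third set, 112204_at on B, was above the floor on 3 of 8 arrays, with both ragweed groups below PBS 24 h and PBS 72 h overlapping it. These were both PBS 24 h arrays and 1 PBS 72 h array, so it was tested only through PBS 24 h. On first-version B it had 489 and 422 in PBS 72 h lungs, above the 226.5 and 299 in PBS 24 h lungs. Both ragweed groups overlapped PBS 24 h there, all below the floor.

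Txnrd1, Srxn1 and Prdx1 belong to the thiol branch, in which peroxiredoxin 1 reduces peroxides, thioredoxin reductase 1 recharges thioredoxin with NADPH, and sulfiredoxin rescues over-oxidized peroxiredoxin. Txnrd1 99985_at read 1229.9 and 1193 in ragweed 72 h lungs, 1366 and 1392 in PBS 72 h lungs, 1316 and 1375 in ragweed 24 h lungs, and 1923 and 2043 in PBS 24 h lungs. The 6 samples of the other groups lay within a narrow band below PBS 24 h, at a log2 difference of -0.60 ± 0.11. Version 2 A placed Txnrd1 at 1102 and 1342 in ragweed 72 h lungs, 1036 and 1099 in PBS 72 h lungs, and 2004 and 2422 in PBS 24 h lungs. PBS 24 h was highest there too, with a log2 difference of -0.95 ± 0.14 from the mean of the 72 h groups. Ragweed 72 h minus PBS 72 h was -0.19 ± 0.14 on first-version A and 0.19 ± 0.17 on version 2 A, so its sign was not settled.

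Srxn1 102780_at read 53.9 and 40.8 in ragweed 72 h lungs, 121 and 74.5 in PBS 72 h lungs, 306 and 103 in ragweed 24 h lungs, and 686 and 842 in PBS 24 h lungs. It was above the floor on 3 of 8 arrays, both PBS 24 h arrays and 1 ragweed 24 h array, so it entered the test only through the group it was chosen for. The fitted log2 difference of the other groups to PBS 24 h was -1.37 ± 0.14 with 5 of the 6 other samples raised to the floor, and -3.04 ± 0.54 with no floor. Ragweed 72 h minus ragweed 24 h was -0.03 ± 0.18 with the floor and -1.92 ± 0.67 with no floor (limma, adjusted p = 0.408). For ragweed 72 h minus PBS 72 h these were 0 and -1.02 ± 0.67 (limma, adjusted p = 0.721). The values with no floor rest mostly on intensities below it. Version 2 A gave 287 and 142 in ragweed 72 h lungs, 269 and 180.4 in PBS 72 h lungs, and 529.7 and 756 in PBS 24 h lungs, again with PBS 24 h highest. A second Srxn1 set on version 2 A, 161090_i_at, did not share this order, with 790.2 and 785 in ragweed 72 h lungs, 512 and 331 in PBS 72 h lungs, and 696 and 332 in PBS 24 h lungs. Its PBS 24 h pair overlapped PBS 72 h and lay below ragweed 72 h.

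Prdx1, with its pseudogene, was the brightest member. The set 97758_at read 8968 and 9151 in ragweed 72 h lungs, 8447 and 8032 in PBS 72 h lungs, 10114 and 11557 in ragweed 24 h lungs, and 15034 and 15147 in PBS 24 h lungs. The groups did not overlap, and ran from PBS 72 h, the lowest, through ragweed 72 h and ragweed 24 h to PBS 24 h. The log2 difference of the other groups to PBS 24 h was -0.70 ± 0.08, and that of ragweed 72 h to ragweed 24 h was -0.26 ± 0.09 (limma, unadjusted p = 0.0235, adjusted p = 0.364). The set had, on version 2 A, 9868 and 9332 in ragweed 72 h lungs, 10935 and 8885 in PBS 72 h lungs, and 14642 and 13029 in PBS 24 h lungs, and the 72 h groups overlapped. The set 97055_s_at had 9960.4 and 9706 in ragweed 72 h lungs, 8718 and 9070.5 in PBS 72 h lungs, 11557 and 10904 in ragweed 24 h lungs, and 12958 and 11557 in PBS 24 h lungs, where one PBS 24 h sample equalled the higher ragweed 24 h sample. On version 2 A this set had 13433 and 11488 in ragweed 72 h lungs and 9585 and 8961 in PBS 72 h lungs. PBS 24 h lungs had 12875 and 11801 there, overlapping ragweed 72 h. The dimmer 136105_at on C had 971 and 1200.2 in ragweed 72 h lungs, 1071 and 1639 in PBS 72 h lungs, 1340 and 1527 in ragweed 24 h lungs, and 1483 and 2028 in PBS 24 h lungs, with all groups overlapping except that both ragweed 72 h samples were below both PBS 24 h and both ragweed 24 h samples.

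**Figure D2:**
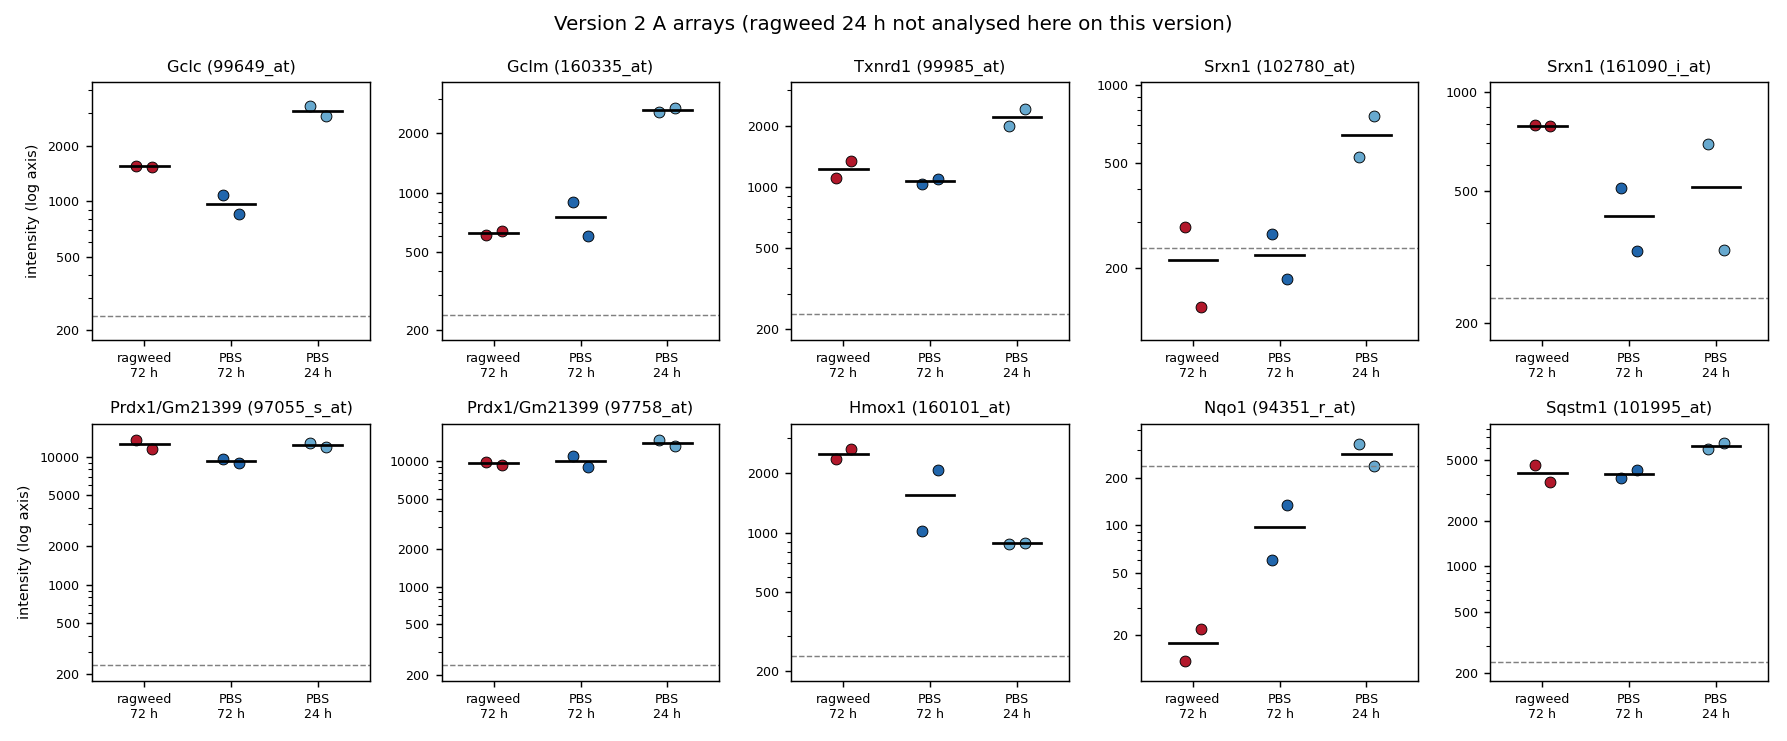
Intensity (log axis) of the 10 tested probe sets on version 2 A arrays for ragweed 72 h, PBS 72 h and PBS 24 h. Points are the 2 samples, bars their mean and the dashed line the floor. PBS 24 h stands above all other samples in 7 panels, the Nqo1 values lying near or below the floor, and below them for Hmox1.

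Hmox1, haem oxygenase 1, opens the haem ring to biliverdin, iron and carbon monoxide, and it did not follow the other members. On version 2 A the set 160101_at read 2358 and 2636 in ragweed 72 h lungs, 1024 and 2083 in PBS 72 h lungs, and 878 and 890.3 in PBS 24 h lungs. PBS 24 h was lowest and ragweed 72 h highest, and the PBS 72 h samples were far apart. Ragweed 72 h minus PBS 72 h was 0.77 ± 0.30 on the log2 scale (limma, unadjusted p = 0.0385, adjusted p = 0.398), and the log2 difference of the 72 h groups to PBS 24 h was 1.11 ± 0.26. The first-version A set 93291_at, built on the same accession, had 1319 and 1138 in ragweed 72 h lungs, 945 and 1727 in PBS 72 h lungs, 1066 and 1141 in ragweed 24 h lungs, and 1611 and 855 in PBS 24 h lungs. There the PBS 24 h pair overlapped every other group, so these 2 sets, on different array versions, did not give the same order. The set 93291_at is not on version 2 A and was left out of the fit. The set 164445_i_at on B was never above the floor.

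Blvrb, biliverdin reductase B, acts downstream of haem breakdown and reduces flavins and biliverdin. Its set 162604_at read 868 and 1179.6 in ragweed 72 h lungs, 733 and 985 in PBS 72 h lungs, 2335 and 2644 in ragweed 24 h lungs, and 2374 and 2498 in PBS 24 h lungs. The samples split by time, both 24 h groups lying above both 72 h groups and overlapping each other. Ragweed 72 h minus ragweed 24 h was -1.30 ± 0.26 on the log2 scale (limma, unadjusted p = 3.98e-04, adjusted p = 0.0858), the smallest p among the 14 members, and missed the threshold. The set 167261_f_at on C read 3099 and 3122 in ragweed 72 h lungs, 2132 and 2817 in PBS 72 h lungs, 5542 and 4638 in ragweed 24 h lungs, and 6248 and 8364 in PBS 24 h lungs. It had the same split by time, but with PBS 24 h above ragweed 24 h, and ragweed 72 h minus ragweed 24 h was -0.70 ± 0.23 (limma, unadjusted p = 0.0138, adjusted p = 0.309). The dim set 167099_r_at had 241 and 297 in ragweed 72 h lungs, 147 and 184 in PBS 72 h lungs, 671 and 271 in ragweed 24 h lungs, and 323 and 205 in PBS 24 h lungs, and PBS 72 h lay below the other groups, which overlapped one another.

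The first-version Blvrb sets were less alike. The set 106293_at, built on the accession of 162604_at, had 1988 and 3484 in ragweed 72 h lungs, 669 and 1023 in PBS 72 h lungs, 3448 and 3214 in ragweed 24 h lungs, and 3318 and 906 in PBS 24 h lungs, with a wide gap inside the PBS 24 h pair. The set 140299_at had 392 and 44.2 in ragweed 72 h lungs, 695 and 760.5 in PBS 72 h lungs, 561 and 303 in ragweed 24 h lungs, and 1072 and 847 in PBS 24 h lungs, with PBS 24 h highest. Nqo1, the quinone reductase that is often read out as the NRF2 reporter, was not measurable on first-version A, where 94350_f_at and 94351_r_at were below the floor on all 8 arrays. The set 94351_r_at had, on version 2 A, 13.7 and 22 in ragweed 72 h lungs, 59.9 and 134 in PBS 72 h lungs, and 328 and 238 in PBS 24 h lungs, at or above the floor in PBS 24 h and below it elsewhere. The set 94350_f_at passed the floor on 1 of 6 version 2 A arrays, a PBS 24 h array, at 273.

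Sqstm1, also called p62, is an autophagy receptor that binds KEAP1 and is itself an NRF2 target. Its set 101995_at read 2157 and 2188 in ragweed 72 h lungs, 2308 and 2253 in PBS 72 h lungs, 2595 and 2574 in ragweed 24 h lungs, and 4583 and 4454 in PBS 24 h lungs. The pairs agreed closely within each group, and PBS 24 h was highest by a wide margin, with a log2 difference of -0.95 ± 0.08 for the other groups. Version 2 A gave 4598 and 3598 in ragweed 72 h lungs, 3788 and 4291 in PBS 72 h lungs, and 5869 and 6396 in PBS 24 h lungs, with a log2 difference of -0.60 ± 0.13. Ragweed 72 h minus ragweed 24 h was -0.25 ± 0.10 (limma, unadjusted p = 0.0322, adjusted p = 0.409).

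In the comparisons that leave PBS 24 h out, none of the 14 probe sets passed the threshold of an adjusted p under 0.05 over all tested probe sets (limma, Benjamini-Hochberg). This held for ragweed 72 h against PBS 72 h, where 0.527% of all tested probe sets were called, and for ragweed 72 h against ragweed 24 h, where 0.305% were called. At an unadjusted p under 0.05, 1 of 14, Gclc 99649_at, was higher in ragweed 72 h than in PBS 72 h, where 4.54% of all were, and 0 were lower, where 5.09% of all were. Between ragweed 72 h and ragweed 24 h, 6 of 14 were lower at 72 h, where 5.35% of all were, and 0 were higher, where 5.26% of all were. These 6 were both bright Blvrb sets, Slc7a11, Gclc 99649_at, Prdx1 97758_at and Sqstm1. Both ragweed 72 h samples lay below both ragweed 24 h samples for 10 of 14 sets, where 18% of all did.

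**Figure D3:**
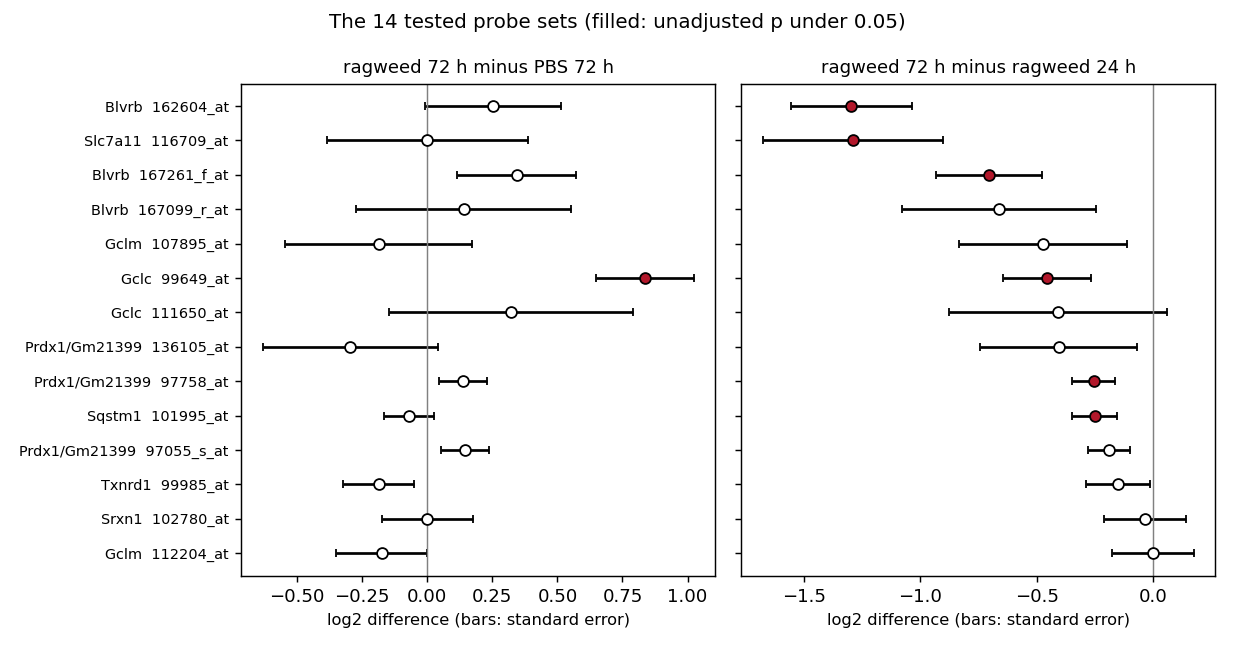
Fitted log2 differences with standard errors for the 14 tested probe sets, ragweed 72 h minus PBS 72 h (left) and ragweed 72 h minus ragweed 24 h (right). Filled points have an unadjusted p under 0.05, and no probe set passed the adjusted threshold in either panel. Srxn1 102780_at and Slc7a11 116709_at stand at 0 on the left because all their 72 h samples were raised to the floor. Gclm 112204_at stands at 0 on the right because all its ragweed samples were. Srxn1 stands near 0 there with both ragweed 72 h samples and 1 ragweed 24 h sample raised to the floor.

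For the contrasts with PBS 24 h, which the choice of genes used, the counts are given as a description. Both ragweed 72 h samples lay below both PBS 24 h samples for 13 of 14 sets, where 19.5% of all did. The count was 11 of 14 for PBS 72 h, where 18.2% of all did, and 8 of 14 for ragweed 24 h, where 17.8% of all did. These 3 comparisons share the PBS 24 h samples. Srxn1 102780_at and Gclm 112204_at were tested only through PBS 24 h. Both are among the 13 and the 8, and Srxn1 is also among the 11. The filter on the other groups' arrays was not applied to these counts. The 6 sets that did not put ragweed 24 h wholly below PBS 24 h were 162604_at and 167099_r_at of Blvrb, both Gclc sets, and 97055_s_at and 136105_at of Prdx1.

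Among the 7 genes with a tested probe set of their own, the log2 profile over the 8 samples was compared with the mean standardised profile of the other 6. Pearson's r was 0.99 for Slc7a11, 0.96 for Sqstm1, 0.88 for Srxn1, 0.86 for Txnrd1, 0.85 for Gclm, 0.76 for Blvrb and 0.70 for Gclc. The points share arrays and normalization, and the choice of genes raises these values. The mean profile stood at 1.23 and 1.40 in PBS 24 h, at 0.14 and 0.12 in ragweed 24 h, and between -0.85 and -0.66 in the 72 h samples. Of all other tested genes, the 6 with the profile most like it over the 8 samples were Morf4l2 (r = 0.99), Anxa1 (r = 0.99), Hes6 (r = 0.97), Abcc4 (r = 0.97), Krt8 (r = 0.97) and Ndufb6 (r = 0.97). Anxa1 encodes the phospholipid-binding annexin A1, Abcc4 an efflux pump of organic anions, Krt8 an epithelial keratin and Ndufb6 a subunit of mitochondrial complex I.

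A wider list of 68 NRF2 pathway genes, chosen with earlier results known, had 51 tested genes, 1 probe set each. In 14 of 51 all 6 other samples lay below both PBS 24 h samples, where 6.04% of 12840 tested genes did, and in 1, Glrx, they lay above, where 3.73% did. The median log2 difference of the other groups to PBS 24 h was -0.20 over the list and -0.01 over all tested genes. With the filter on the other groups' arrays alone the count was 13 of 50, where 5.82% of 12393 genes did. In the test of ragweed 72 h against PBS 72 h, 1 gene of 51 was lower and 0 higher, where 0.646% of 12840 genes were called, and in ragweed 72 h against ragweed 24 h 0 were called, where 0.296% were (limma, adjusted p). At an unadjusted p under 0.05 the list had 4 higher and 8 lower genes in the first and 3 higher and 13 lower in the second, where 657 higher and 706 lower, and 632 higher and 741 lower, of 12840 genes were found.

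The called gene was Gstm1, a glutathione S-transferase, whose set 93543_f_at read 9663 and 9870.2 in ragweed 72 h lungs, 16454 and 14873 in PBS 72 h lungs, 13317 and 14873 in ragweed 24 h lungs, and 14308 and 12628 in PBS 24 h lungs. Both ragweed 72 h samples were below all the others. The log2 difference of ragweed 72 h to PBS 72 h was -0.68 ± 0.10 (limma, adjusted p = 0.036), but the call was lost in 14 of 17 other settings, and on version 2 A the log2 difference was -0.02 ± 0.12. Aldh3a1, an aldehyde dehydrogenase, read 1160.3 and 935 in ragweed 72 h lungs, 2231 and 2258 in PBS 72 h lungs, 1562 and 1309.7 in ragweed 24 h lungs, and 2531 and 1699.9 in PBS 24 h lungs. It was lower in both ragweed 72 h samples than in every other sample, and its log2 difference to PBS 72 h was -1.11 ± 0.21 (limma, adjusted p = 0.0942). Measured on version 2 A, the same difference was -1.47 ± 0.18 with an adjusted p of 0.0317.

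By role, 5 of 15 tested glutathione genes had all other samples below PBS 24 h, where 6.04% of all tested genes did, with a median log2 difference of -0.38. Gpx2, an epithelial glutathione peroxidase, read 1231 and 1390.3 in ragweed 72 h lungs, 980.4 and 1265 in PBS 72 h lungs, 2101 and 1894 in ragweed 24 h lungs, and 3196 and 2329 in PBS 24 h lungs. The 72 h groups were lowest, ragweed 24 h intermediate and PBS 24 h highest, with a log2 difference of -0.93 ± 0.16. Gss, glutathione synthetase, had a log2 difference of -0.87 ± 0.31, the glutaredoxin gene Glrx 0.64 ± 0.17 and the microsomal transferase gene Mgst1 0.12 ± 0.09. In the tested contrasts this list had 1 lower gene, Gstm1, in ragweed 72 h against PBS 72 h.

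The thioredoxin list had both tested genes, of 5 listed, below PBS 24 h, where 6.04% of all tested genes were. Txn1 was at -0.34 ± 0.07 on the log2 scale. Txnl1 was above the floor on 3 of 8 arrays, both PBS 24 h arrays and 1 PBS 72 h array, so it was tested only through PBS 24 h. Of 4 NADPH supply genes 1 was below, Taldo1 at -0.72 ± 0.14, beside Pgd at -0.30 ± 0.11. Me1, malic enzyme, was at 0.55 ± 0.14, but its PBS 72 h and PBS 24 h pairs overlapped and both ragweed groups lay above them. Tkt stood at 0.03 ± 0.21. Of 4 haem and iron genes none had all other samples below, or all above, both PBS 24 h samples. They ran from Slc48a1 at -0.23 ± 0.19 and Fth1 at -0.06 ± 0.09 to Blvra at 0.07 ± 0.34 and Hmox2 at 0.29 ± 0.22. For Hmox2 both ragweed 72 h samples, at 698 and 573, lay above every other sample.

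Of 10 detoxification genes 1 was below PBS 24 h, a share near the 6.04% of all tested genes. It was Akr1b8, an aldo-keto reductase, at a log2 difference of -0.88 ± 0.15. Cbr3, a carbonyl reductase, had the largest, -1.11 ± 0.43, with ragweed 24 h overlapping PBS 24 h, and Ugdh and Cbr2 were at 0.09 ± 0.13 and 0.14 ± 0.32. Of 5 antioxidant genes 1 was below, the superoxide dismutase gene Sod1 at -0.34 ± 0.07. Sod3, Mt2 and Sod2 stood at -0.03 ± 0.11, 0.18 ± 0.10 and 0.21 ± 0.26. Of 4 other targets 2 were below, Pir at -0.83 ± 0.29 and Procr at -0.27 ± 0.21, while Sesn2, at -0.74 ± 0.55, overlapped PBS 24 h. Except for Gstm1, none of the genes in these lists was called in either tested contrast.

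Of 7 regulators of the pathway 2 were below PBS 24 h, where 6.04% of all tested genes were, the small MAF gene Maff at -0.54 ± 0.23 and Nfe2l2 itself at -0.18 ± 0.10 on the log2 scale. Nfe2l2 read 3222 and 3857 in ragweed 72 h lungs, 3693 and 4009 in PBS 72 h lungs, 3476 and 3948 in ragweed 24 h lungs, and 4266 and 4104 in PBS 24 h lungs, a small step beside those of its targets. NRF2 is controlled mainly through its protein, which these arrays do not measure. Bach1 and Bach2, repressors that compete for the same elements, stood at 0.38 ± 0.22 and -0.45 ± 0.23, and Mafg at 0.06 ± 0.22. No regulator was called in the tested contrasts.

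**Figure D4:**
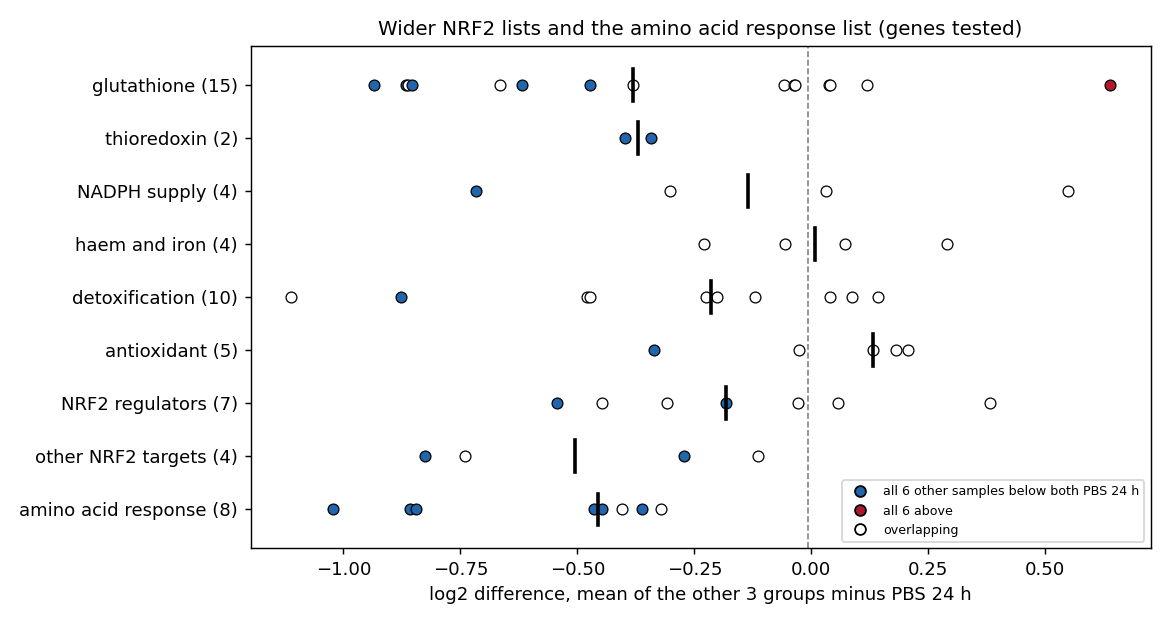
Log2 difference of the mean of the other 3 groups to PBS 24 h for each tested gene of the wider NRF2 lists and the amino acid response list, with the number of tested genes in brackets. Black bars are list medians and the dashed line is the median of all tested genes; blue points, all 6 other samples below both PBS 24 h samples, number 14 over the NRF2 lists and 6 in the amino acid response list.

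Slc7a11 and Sqstm1 also belong to the amino acid response driven by ATF4, and 8 genes of that response were tested. In 6 of 8 all other samples lay below both PBS 24 h samples, where 6.04% of all genes did, with a median log2 difference of -0.46. Psat1, of serine synthesis, was at -1.02 ± 0.26 and Chac1, which degrades glutathione, at -0.86 ± 0.18. Ddit3, encoding CHOP, read 69.2 and 292 in ragweed 72 h lungs, 292 and 114 in PBS 72 h lungs, 93.8 and 196 in ragweed 24 h lungs, and 409 and 671 in PBS 24 h lungs, at or below the floor in the other groups except just above it in 1 PBS 72 h sample. It was tested only through PBS 24 h, and with the filter on the other groups' arrays the count was 5 of 7, where 5.82% of all genes did. Chac1 read 1182 and 1114 in ragweed 72 h lungs, 1159 and 1238 in PBS 72 h lungs, 2007 and 1740.4 in ragweed 24 h lungs, and 2467 and 2496 in PBS 24 h lungs. Atf3 and Asns overlapped PBS 24 h, at -0.40 ± 0.19 and -0.32 ± 0.14. None of the 8 was called in the tested contrasts.

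Marker lists also set PBS 24 h apart, and their part in the NRF2 pattern was not tested. Club cell markers, 8 of 8 on the arrays and 7 tested, summed to 102839 to 103899 in ragweed 72 h, 116617 to 126246 in PBS 72 h, 107277 to 116028 in ragweed 24 h and 61814 to 65180 in PBS 24 h. The defining secretoglobin Scgb1a1, the largest part of this sum, was lowest in PBS 24 h, at 30595 and 32315. Scgb3a2 and Cyp2f2 were also lowest there, Cyp2b10 was highest, and Aldh1a1, Cbr2 and Cckar overlapped the other groups. Of the 7 tested, 1, Cyp2f2, was called lower in ragweed 72 h than in PBS 72 h (limma), where 0.646% of all tested genes were called. Heat shock genes, 8 of 9 on the arrays and all 8 tested, summed to 18225 to 18615, 18914 to 19915, 19451 to 20205 and 24560 to 30121 in the same order of groups. Of these, Hspd1, Hspe1 and Dnajb1 had all other samples below PBS 24 h, and the inducible Hspa1a and Hspa1b did not.

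Erythroid markers, 5 of 9 on the arrays, summed to 45850 to 50988 in ragweed 72 h, 13128 to 56576 in PBS 72 h, 36439 to 61948 in ragweed 24 h and 66111 to 67217 in PBS 24 h. Hba-a1, at 61163 in both PBS 24 h samples, makes up most of this sum, and Alas2, Bpgm and Slc4a1 overlapped between PBS 24 h and the other groups. T cell markers, 3 of 7 tested, summed to 1512 to 2063, 2216 to 2391, 1419 to 1680 and 3027 to 3079 in the same order of groups. Of the T cell markers Cd3d alone had PBS 24 h above all other samples, at 1829.6 and 1816, and Cd4 and Cd3e overlapped. B and plasma cell markers, 5 of 7 tested, summed to 40542 to 47954, 14707 to 14792, 17521 to 17664 and 6719 to 7272, in the same order. Ighm makes up most of this sum. Ighm and Jchain had PBS 24 h below all other samples, and Ms4a1, Cd79a and Mzb1 did not. Of the 5 tested, 3 were called higher in ragweed 72 h than in PBS 72 h, and also than in ragweed 24 h (limma). They were Ighm, Jchain and Mzb1, where 0.646% and 0.296% of all tested genes were called in the 2 contrasts. Heart and skeletal muscle markers, 8 of 8 tested, summed to 15636 to 16478, 27725 to 29825, 16198 to 18258 and 12431 to 12560 in that order. All 8 were lower in ragweed 72 h than in PBS 72 h at an unadjusted p under 0.05 (limma), where 706 of 12840 tested genes were. Of these, 2, Myl7 and Nppa, were called, where 0.646% of all tested genes were called in either direction. Only Myl1 and Acta1 of this list had PBS 24 h below all other samples. Neutrophil markers, 6 of 9 tested, summed to 6778 to 7004, 7760 to 8384, 6630 to 9079 and 5905 to 6301. Among them Ltf alone had PBS 24 h below all other samples. Macrophage, ciliated and alveolar type II sums overlapped between PBS 24 h and at least 1 other group. Of 7 tested macrophage markers 1, Mpeg1, was called higher in ragweed 72 h in both contrasts (limma), beside the same 0.646% and 0.296% of all tested genes. No summed marker was at 0 in any sample. Lung markers, 6 of 7 tested and with Scgb1a1 among them, summed to 154955 to 165029, 163244 to 169522, 170284 to 173021 and 141754 to 145448, and were bright in every sample except Sftpd, which lay near the floor. Scgb1a1 alone of these was lowest in PBS 24 h, while Ager and Sftpc were highest there.

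On first-version A the deposited ragweed arrays had a trimmed mean of 800, while the PBS arrays had not been scaled, at 376.5 and 224.7 in PBS 72 h and 239.7 and 245.9 in PBS 24 h. The PBS arrays were likewise unscaled on first-version B, at 86.5 to 138.9, and on first-version C, at 80.64 to 129. The version 2 arrays had all been scaled to about 800, and PBS 24 h was highest on them for Slc7a11 116709_at, Sqstm1, Gclm 107895_at and 160335_at, Gclc 99649_at, Txnrd1 and Srxn1 102780_at. The same held for Blvrb 167261_f_at and Prdx1 97758_at. The PBS 24 h pair did not lie above all others for Prdx1 97055_s_at and 136105_at or Blvrb 162604_at and 167099_r_at. Nor did it for Gclc 111650_at, Gclm 112204_at, Srxn1 161090_i_at or Hmox1 160101_at. Between the array versions, the PBS 24 h mean over the mean of the 72 h groups was 10.5 on the first and 2.93 on version 2 for Srxn1 102780_at, 2.03 and 1.51 for Sqstm1, 1.91 and 2.46 for Gclc 99649_at, and 1.53 and 1.93 for Txnrd1. This ratio was 1.74 and 1.42 for Prdx1 97758_at, and 1.31 and 1.14 for Prdx1 97055_s_at. The ratio of the 3' to the 5' actin control, a sign of RNA or labelling quality, was 0.801 and 0.578 in ragweed 72 h, 0.189 and 0.198 in PBS 72 h, and 0.535 and 0.437 in PBS 24 h on version 2 A. On first-version A it ranged from 0.798 to 0.968 over all 8 arrays. On version 2 B, which measured Slc7a11 116709_at, Gclm 107895_at and Blvrb 162604_at, the actin ratio was lowest in PBS 24 h, at 0.708 and 0.465, against 0.813 to 1.1 in the other groups. The 3' to 5' ratio of the Gapdh control split by time there, at 0.817 to 1.05 in the 72 h groups and 1.14 to 1.44 in the 24 h groups. On version 2 C, which measured Blvrb 167261_f_at, it was 0.777 to 0.963 in the 72 h groups and 1.02 to 1.25 in the 24 h groups. The part of these ratios in the results was not tested.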

How the data were processed

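The authors deposited linear array intensity, 1 value per probe set and array. No source used here names the software behind those values. One ragweed 24 h array, with no letter in its code, held the 1a values over 2.63 throughout and was left out, so 46 of 47 arrays were distinct. Control spots were dropped, and first-version A was restricted to the 9977 IDs shared with version 2 A, brought to a 2% trimmed mean of 800, then quantile normalized. On version 2 B and C the deposited scale was kept. Values below the floor were raised to it, which can make standard errors too small. Log2 values of 25250 probe sets (6896 on A, 9190 on B and 9164 on C) went into a linear model in limma 3.58.1 (R 4.3.3) that gives each of the 4 groups a mean, which leaves 4 residual degrees of freedom, followed by eBayes (trend). Benjamini-Hochberg adjustment ran over all 3 tables together. Version 2 A and first-version B and C were fitted separately. Errors after ± are standard errors of the log2 difference. Gene symbols came from GEO's platform annotation, updated by gene ID, and in list counts 1 probe set stood for each gene, A before B before C, then the brightest. The genes, lists and tests were chosen with earlier results of these data known. From each list the called genes and the 2 largest differences to PBS 24 h in each direction were named; the per-sample values of Gstm1, and Aldh3a1, Nfe2l2, Chac1, Ddit3, Atf3, Asns and the named markers, were added after their values were seen. The fit was tested on simulated data. The alternatives tried concerned normalization, floor, filter, array version, variance trend, adjustment, a replicate block and left-out samples, with a filter on the other groups' arrays added after seeing the data.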

Additional observations from a re-analysis of the deposited data

Results flagged for a closer look

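For 2 probe sets, all ragweed samples lay above the PBS samples at 72 h and below them at 24 h. Prdx1 97758_at, which also matches Gm21399, had a log2 difference of ragweed to PBS of 0.1372 at 72 h (SE 0.0919) and -0.4811 at 24 h (SE 0.0919). Blvrb 167261_f_at had a difference of 0.3437 at 72 h (SE 0.228) and -0.5119 at 24 h (SE 0.228). The difference between the times was not tested, since the 24 h contrast holds the PBS 24 h samples for which the genes were chosen. At 72 h neither probe set was called (limma), and on version 2 A the 72 h difference of Prdx1 97758_at was -0.04 ± 0.14.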

How the results depend on the processing

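None of the 14 member probe sets was called in either tested contrast under any of the alternatives run. The number with all other groups below PBS 24 h was 7, with a range of 7 to 9 when each sample was left out in turn and of 6 to 8 under the other alternatives, the 6 with the filter on the other groups' arrays, which was chosen after seeing the data. Of the wider list, 1 gene was called in ragweed 72 h against PBS 72 h. The count was 0 with first-version A scaled without quantile normalization, with the floor at the 20th percentile, with every probe set tested, without the variance trend, with the replicate block, and without any one sample (lowest 0, highest 0). With adjustment within each table it was 4 (Gstm1, Sod3, Me1 and Aldh3a1), and 3 genes (Gstm1, Sod3 and Gsta2) were called in ragweed 72 h against ragweed 24 h, where the main count was 0. On the other array version the 1 gene called was Aldh3a1. Differences to PBS 24 h moved by at least 1 standard error of the main difference between the 72 h groups in 12 cases, and by less in 221. Srxn1 102780_at went from -1.37 to -3.04 with no floor, and Gclc 111650_at from -1.07 to -0.24 on first-version B. Uncalled differences between the other groups changed sign in 6 cases. On version 2 A, ragweed 72 h minus PBS 72 h was 0.013 for Sqstm1 101995_at, -0.039 for Prdx1 97758_at and 0.19 for Txnrd1 99985_at. With each sample left out in turn it ran from -0.50 to 0.13 for Gclm 107895_at (highest without PBS 72 h 1a) and from -0.60 to 0.011 for Prdx1 136105_at (highest without PBS 72 h 1b). Ragweed 72 h minus ragweed 24 h ran from -1.14 to 0.32 for Gclc 111650_at (highest without ragweed 24 h 1a). The cause was not tested. Samples that share a code did not deviate together (correlations from -0.079 to 0.0438 over 18 pairs). What 1a and 1b stand for cannot be told from these correlations. With the replicate block Gstm1 stood at -0.68 with an adjusted p of 0.0755 (limma). With 2 samples a group, log2 differences had median standard errors of 0.231 (A), 0.325 (B) and 0.451 (C). Nqo1, 101713_at of Slc7a11 and 164445_i_at of Hmox1 gave no usable signal over background in the main tables.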
